A study of Mus musculus with 6 samples.

Results

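The 10 transcription factor genes described here steer natural killer (NK) cells through development and terminal maturation. They are Id2, Nfil3, Ets1, Gata3, Tbx21, Eomes, Ikzf3, Prdm1, Zeb2 and Zeb1. They were taken by name from a list, and all 10 were found among the 24343 genes of the expression tables. The RNA came from splenic cells of female C57BL/6 mice that were sorted on NK1.1 and NKp46, without CD3 or binding of the CD1d tetramer. The mice had received an IL-15 cytokine complex (IL-15C, 3 libraries) or an IL-2 cytokine complex (IL-2C, 3 libraries). No allele or further agent is given for either group, the labels used here give neither dose nor time, and untreated cells were not analysed here, so every difference below is between the 2 treatments.

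NK cells arise when Nfil3, Ets1 and Id2 open the lineage; ID2 protein does so by binding E proteins and keeping them off DNA. The T-box factors T-bet (gene Tbx21) and Eomes then set the NK programme and its stages. In mouse NK cells T-bet induces Zeb2, a zinc-finger repressor that is needed for the last maturation step, while Blimp-1 (gene Prdm1) and Aiolos (gene Ikzf3) also act late. IL-2 and IL-15 share the receptor chains that carry their signal in NK cells and both activate STAT5.

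Zeb2 was lower in IL-15C cells, and it was the only 1 of the 10 genes that passed the test. The groups of Eomes, Id2 and Ets1 also did not overlap, with IL-15C below IL-2C, but these genes did not pass. Of all tested genes, 4.72% passed with IL-15C lower, and 25.1% had groups that did not overlap in that direction. Tbx21, Nfil3 and Ikzf3 had nearly equal means in both groups.

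The sequences around the start sites are shown for Zeb2, Eomes and Id2, the 3 genes with an unadjusted p under 0.05, and for Tbx21 as the T-box gene with equal means. Each runs from 250 bases before the start site to 50 after it, 5′ to 3′ on the gene's strand, from RefSeq on GRCm38.p6, which is the mm10 assembly. The windows are chr2:45113230-45113529 on the minus strand for Zeb2, chr9:118477939-118478238 on the plus strand for Eomes, chr12:25096043-25096342 on the minus strand for Id2 and chr11:97115282-97115581 on the minus strand for Tbx21. Of the 4 windows listed for Zeb2, the printed window is the 1 whose start site equals the 5′ end of the gene's row in the tables. Capitals mark matches, on either strand, to any of 5 short patterns. Sites of STAT factors were searched as TTCNNNGAA. The E-box that ZEB factors bind was searched as CAGGTG. A core of T-box sites was searched as AGGTGT, which shares letters with that E-box where they adjoin. Sites of ETS factors were searched as GGAAGT. Sites of GATA factors were searched as AGATAA.
Zeb2: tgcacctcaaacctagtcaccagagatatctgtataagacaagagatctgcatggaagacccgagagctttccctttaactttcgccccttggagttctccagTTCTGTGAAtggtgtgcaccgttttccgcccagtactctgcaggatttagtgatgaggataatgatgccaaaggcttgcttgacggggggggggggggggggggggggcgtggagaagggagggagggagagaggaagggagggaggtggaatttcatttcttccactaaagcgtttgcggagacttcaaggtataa
Eomes: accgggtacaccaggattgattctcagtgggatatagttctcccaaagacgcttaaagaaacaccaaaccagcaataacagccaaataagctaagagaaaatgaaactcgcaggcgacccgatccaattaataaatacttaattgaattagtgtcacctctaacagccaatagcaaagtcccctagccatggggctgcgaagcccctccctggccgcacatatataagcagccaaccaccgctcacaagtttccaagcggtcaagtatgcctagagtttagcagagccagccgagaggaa
Id2: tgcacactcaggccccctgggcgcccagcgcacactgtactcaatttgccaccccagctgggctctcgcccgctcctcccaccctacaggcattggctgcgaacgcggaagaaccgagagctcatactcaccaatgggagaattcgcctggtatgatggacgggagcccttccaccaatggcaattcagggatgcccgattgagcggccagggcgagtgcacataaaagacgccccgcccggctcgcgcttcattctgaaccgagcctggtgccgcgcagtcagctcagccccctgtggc
Tbx21: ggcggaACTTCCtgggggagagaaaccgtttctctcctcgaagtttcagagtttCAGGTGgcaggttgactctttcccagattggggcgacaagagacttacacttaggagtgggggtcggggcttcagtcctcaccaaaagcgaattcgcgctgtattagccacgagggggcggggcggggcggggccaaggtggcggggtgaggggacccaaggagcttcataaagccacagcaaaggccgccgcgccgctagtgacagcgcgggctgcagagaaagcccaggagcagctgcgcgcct
The Zeb2 window held 1 STAT match, whose first base lies 147 bases before the start site, and no match to the other patterns. The Tbx21 window held 1 E-box match and 1 ETS match, and those of Eomes and Id2 held none. Of 32544 different windows in the RefSeq table, 8.33% held the STAT pattern, 20.3% the E-box, 13.8% the T-box core, 23.7% the ETS pattern and 11.2% the GATA pattern, so such matches are common. RefSeq windows were searched for 7 of the 10 genes. Zeb1 was left out by choice, and no window was found for Ikzf3 or Ets1. The window of Prdm1 held 1 E-box and 1 ETS match, while those of Gata3 and Nfil3 held none.

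Levels are given in FPKM, fragments per kilobase of transcript scaled by library size, so genes can be set side by side. Id2 was the most abundant of the 10 and Zeb1 the least, and their means over the 6 libraries differed 90.7-fold. The order from high to low was Id2, Ets1, Tbx21, Ikzf3, Eomes, Zeb2, Prdm1, Gata3, Nfil3 and Zeb1. That order was the same in 6 of 6 libraries, and the ranges of neighbours in it did not overlap for any of the 9 neighbouring pairs. The closest neighbours were Tbx21 and Ikzf3, whose means differed 1.2-fold. Mean levels ranged from percentile 27.0 of the 9831 tested genes for Zeb1 to percentile 99.1 for Id2. Within a treatment the coefficient of variation of a gene was between 0.898% and 10.7% (n = 3), lowest for Id2 in IL-2C and highest for Tbx21 in IL-2C. The authors' deposited bounds around single-library values spanned 1.12% to 5.27% of the value on either side.

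**Figure D1:**
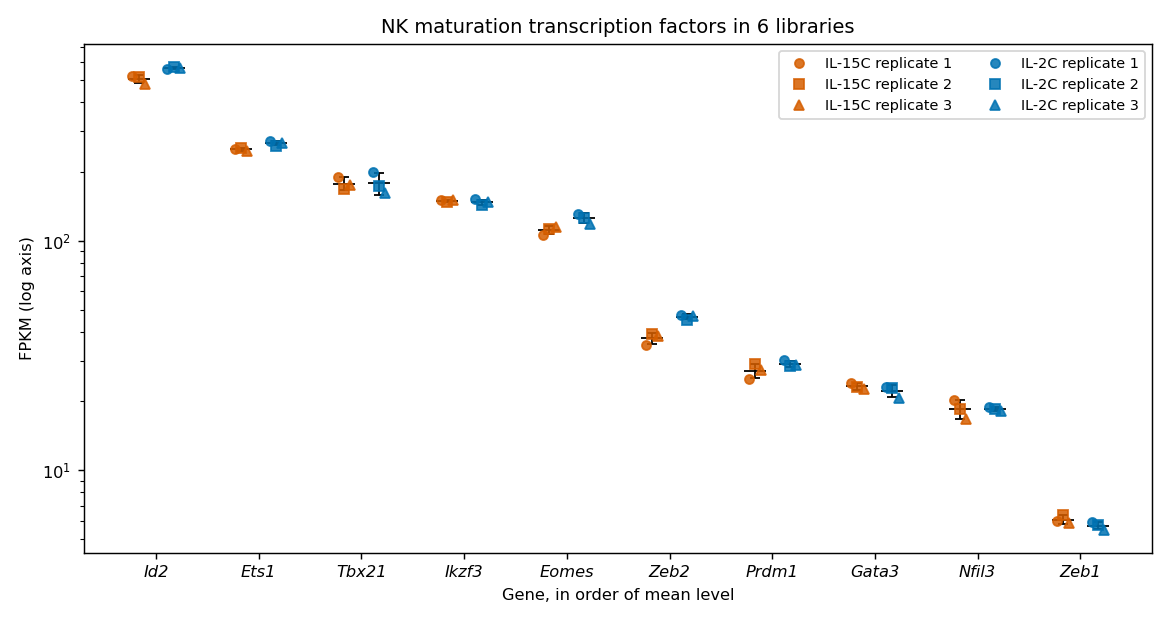
FPKM of the 10 genes in each library on a log axis, genes ordered by mean level, IL-15C left of IL-2C for each gene; bars are the mean and SD (n = 3). The 10 genes keep the same order in all 6 libraries, and the differences between treatments are small beside the 90.7-fold span of levels.

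Fragment numbers implied by the authors' bounds are only a rough guide to read depth. They were 23543141 to 24580391 in IL-15C libraries and 23665058 to 27229145 in IL-2C libraries. Ncr1 and Klrb1c, the genes of the sort markers NKp46 and NK1.1, had 755 to 797 and 507 to 551 FPKM in IL-15C, against 783 to 832 and 513 to 557 FPKM in IL-2C. The summed level of 8 T cell genes was 50.7 to 71.9 FPKM in IL-15C and 52.7 to 57.5 FPKM in IL-2C. Cd3g alone gave 31.6 to 44.6 FPKM in IL-15C and 30.7 to 32.9 FPKM in IL-2C, and Cd4, Cd8a and Cd8b1 stayed at or under 0.077 FPKM. The 6 B cell genes looked up summed to 4.99 to 15.6 FPKM in IL-15C and 9.10 to 21.8 FPKM in IL-2C, and 6 myeloid genes to 299 to 350 FPKM in IL-15C and 248 to 280 FPKM in IL-2C. Most of the myeloid sum was Itgax, which NK cells also express and which rose by 0.29 ± 0.05 on the log2 scale (SE, limma adjusted p = 0.0209, up to 0.0975 with a library left out, the call being kept only without IL-15C replicate 1). The 5 NK markers, Eomes among them, summed to 2539 to 2593 FPKM in IL-15C and 2733 to 2837 FPKM in IL-2C, 5 ILC1 genes to 22.6 to 31.9 FPKM in IL-15C and 26.0 to 28.8 FPKM in IL-2C, and 4 erythroid genes to 0.607 to 16.98 FPKM in IL-15C and 1.92 to 3.77 FPKM in IL-2C. Itgax was the only marker that passed the test, and no marker was at 0 in all 6 libraries. All 5 NK markers had a log2 change below 0, as did 64.7% of all tested genes. Those of Klrb1c and Ncr1 were -0.004 and -0.06, beside a median of -0.04 over all tested genes. Klrd1 had 727 to 765 FPKM in IL-15C and 860 to 886 FPKM in IL-2C (limma adjusted p = 0.0512). Klrk1 had 387 to 408 FPKM in IL-15C and 446 to 454 FPKM in IL-2C (limma adjusted p = 0.0591). The part of these markers in the results below was not tested. IL-2C replicate 1 was the highest library for 6 of the 10 factor genes and also had the largest summed FPKM, 378874, against 353612 to 365759 in the other 5 libraries.

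Differences were tested with limma on log2(FPKM + 1) over all 9831 genes with a mean of at least 1 FPKM, and all 10 factor genes passed that filter. The threshold was a Benjamini-Hochberg adjusted p of 0.05, and a change is IL-15C minus IL-2C with its standard error. Of the 10 genes, limma called 1 lower and 0 higher. Of all tested genes it called 6.44%, made up of 4.72% lower and 1.72% higher. That split of 464 lower and 169 higher genes depended on scaling: it was 207 lower and 325 higher with a common median and 269 lower and 307 higher with quantile normalization, while Zeb2 stayed the 1 called factor gene. With unadjusted p-values and the same cut of 0.05, limma gave 3 lower and 0 higher among the 10. At that cut 637 of the 9831 tested genes were higher. The number of all genes lower at that cut is not given here, so the 3 have no background share. The 3 values of IL-15C lay below all 3 of IL-2C for 4 of the 10 genes, where 25.1% of all tested genes were separated in that direction. None of the 10 was separated the other way, against 8.15% of tested genes (33.3% in either direction). The median log2 change of the 10 was -0.05, close to the -0.04 of all tested genes. In bulk samples, fewer cells of a maturation stage and less RNA per cell cannot be told apart.

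**Figure D2:**
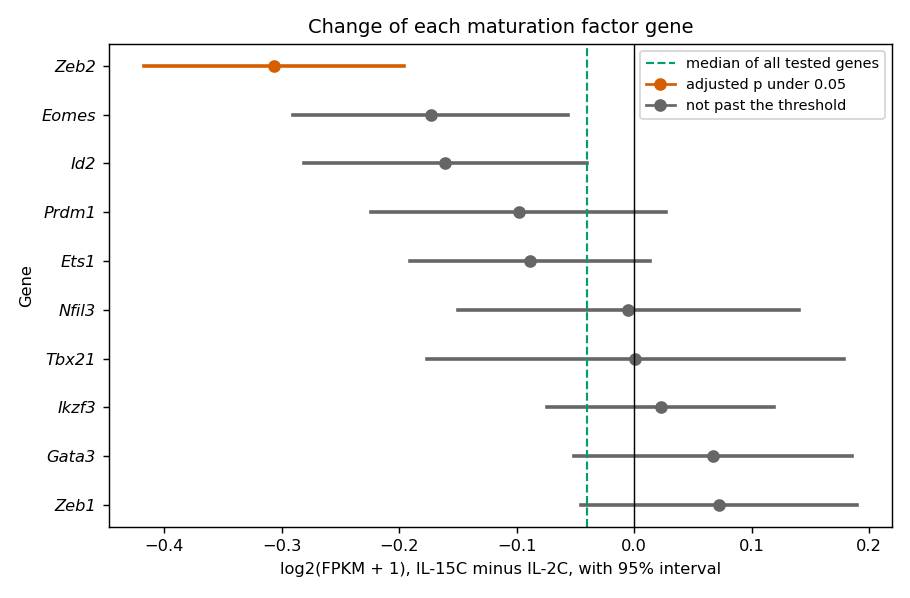
Log2 change of each gene, IL-15C minus IL-2C, with the 95% interval of the limma fit (3 libraries per treatment); the dashed line is the median of all tested genes, -0.04. Zeb2, at -0.31, lies farthest from 0 and is the gene past the threshold, and the intervals of Eomes and Id2 also lie below 0.

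Zeb2, on chromosome 2 at 44983512 to 45113279 in mm10, had 35.2, 39.1 and 38.3 FPKM in IL-15C and 47.5, 45.2 and 47.1 FPKM in IL-2C. Every IL-15C library lay below every IL-2C library, and the gap between the groups was wider than the range inside either. The means were 37.5 ± 2.04 FPKM in IL-15C and 46.6 ± 1.28 FPKM in IL-2C (SD, n = 3 each), 1.24-fold higher in IL-2C. The log2 change of Zeb2 was -0.31 ± 0.05 with a 95% interval of -0.42 to -0.20 (limma adjusted p = 0.0165). The call was lost without IL-2C replicate 1 (limma adjusted p = 0.0668), without IL-2C replicate 2 (0.0605) and with no filter on low genes (0.0669). In those settings limma called 0.193%, 0.153% and 0.0552% of all tested genes lower, against 4.72% as reported. The change of Zeb2 stayed between -0.34 and -0.25 in all 16 alternatives. The authors' deposited table, which holds 1 value per group, put Zeb2 at 51.0 FPKM in IL-15C (43.3 to 58.7) and 61.3 FPKM in IL-2C (52.0 to 70.7). The deposited bounds overlapped for Zeb2 and for the other 9 genes in that table.

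Zeb1, the relative of Zeb2 that shares its zinc-finger and homeodomain design and acts in T cell development, did not pass the test. Zeb1, on chromosome 18 at 5591860 to 5775468, had 5.98, 6.39 and 5.85 FPKM in IL-15C and 5.94, 5.75 and 5.50 FPKM in IL-2C. The groups overlapped, and IL-15C was lower in 1 of the 9 pairs of an IL-15C and an IL-2C library. Its log2 change was 0.07 ± 0.05 with a 95% interval of -0.05 to 0.19 (limma adjusted p = 0.400). Dividing Zeb2 by Zeb1 inside each library removes any difference in library scaling. The ratio was 5.89, 6.12 and 6.54 in IL-15C, against 8.003, 7.85 and 8.58 in IL-2C. These ratios did not overlap between treatments, with means of 6.18 ± 0.331 in IL-15C and 8.14 ± 0.381 in IL-2C (SD, n = 3 each). The log2 difference of the ratio was -0.40, and between -0.44 and -0.36 with each library left out in turn. It is given as a description, since 3 against 3 libraries cannot reach an exact permutation p under 0.1.

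The antisense transcript Zeb2os, which starts inside Zeb2 on the opposite strand and runs out past the 5′ end of Zeb2, was also lower in IL-15C; it was looked at after the data had been seen. It lies on chromosome 2 at 45111138 to 45114084 in the tables. Zeb2os had 4.68, 4.06 and 4.31 FPKM in IL-15C and 5.93, 5.46 and 6.79 FPKM in IL-2C, again with no overlap. Its log2 change was -0.40 ± 0.08 (limma adjusted p = 0.0226), and it passed in 1 of the 6 fits that left out a library, the fit without IL-15C replicate 1. No source used here says that the reads were assigned by strand, so reads of Zeb2 and Zeb2os cannot be told apart where they overlap.

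**Figure D3:**
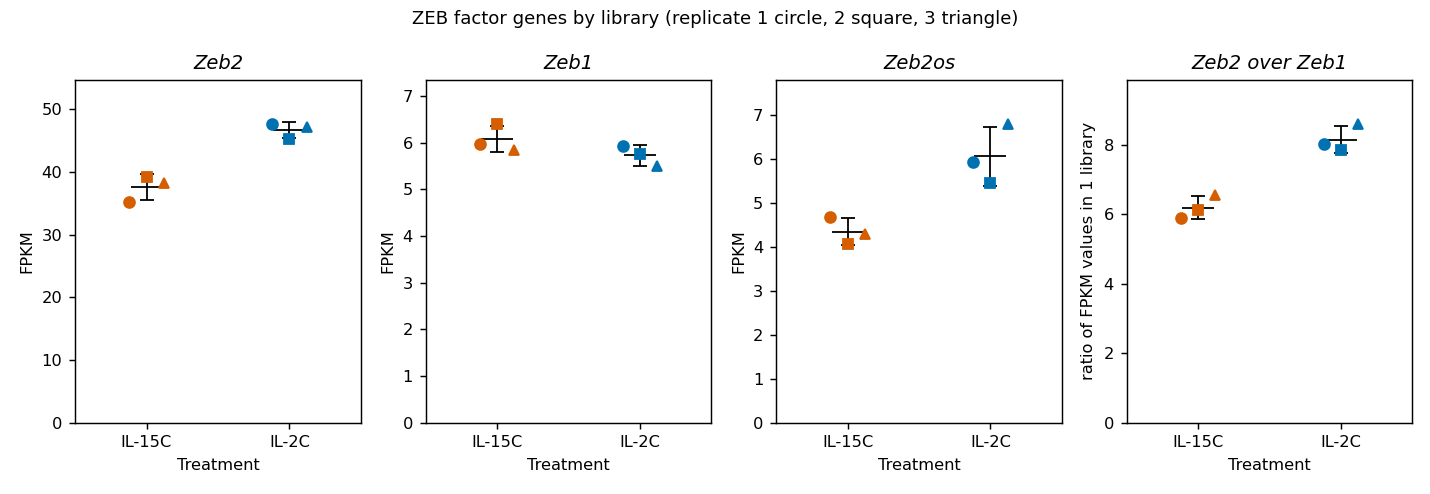
FPKM of Zeb2, Zeb1 and Zeb2os, and the ratio of Zeb2 to Zeb1 inside each library, in IL-15C (left) and IL-2C (right); symbols mark replicate numbers, bars the mean and SD (n = 3). Zeb2, Zeb2os and the ratio are lower in all 3 IL-15C libraries, while the Zeb1 values overlap.

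Among 7546 other genes of at least 5 FPKM, the 3 whose centred log2 values lay closest to those of Zeb2 over the 6 libraries were Vsig10, Zfp85 and Hs3st3b1. Their root mean square differences from Zeb2 were 0.0094 for Vsig10, 0.020 for Zfp85 and 0.022 for Hs3st3b1 on the log2 scale, where the spread of Zeb2 itself was 0.161. Vsig10 encodes an immunoglobulin-domain protein and had 4.64 ± 0.296 FPKM in IL-15C and 5.90 ± 0.146 FPKM in IL-2C (SD, n = 3 each). Hs3st3b1 encodes a heparan sulfate sulfotransferase and had 15.4 ± 1.23 FPKM in IL-15C and 19.2 ± 0.369 FPKM in IL-2C. Zfp85, a zinc-finger gene, had 7.33 ± 0.359 FPKM in IL-15C and 9.17 ± 0.290 FPKM in IL-2C. This likeness was picked from many genes over 6 libraries and is a description.

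Neither T-box gene passed the test. Tbx21, on chromosome 11 at 97098007 to 97115331, had 190, 167 and 174 FPKM in IL-15C and 198, 173 and 161 FPKM in IL-2C. The groups were interleaved, with the highest and the lowest library both from IL-2C. The log2 change of Tbx21 was 0.001 ± 0.08 with a 95% interval of -0.18 to 0.18 (limma adjusted p = 0.994). Eomes, on chromosome 9 at 118478189 to 118486132, had 106, 112 and 115 FPKM in IL-15C and 131, 126 and 119 FPKM in IL-2C. All IL-15C values of Eomes lay below all IL-2C values. The log2 change was -0.17 ± 0.05 with a 95% interval of -0.29 to -0.06, which did not pass (limma adjusted p = 0.0755). The ratio of Tbx21 to Eomes was 1.79, 1.49 and 1.52 in IL-15C, against 1.51, 1.37 and 1.36 in IL-2C. These ratios overlapped, by IL-2C replicate 1 exceeding IL-15C replicate 2. Of 9 other T-box and GATA genes looked up, 8 had a mean under 1 FPKM; the exception was Tbx6 at 4.22 FPKM, far below Tbx21 and Eomes.

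Id2, the partner-blocking inhibitor of E proteins, lies on chromosome 12 at 25093799 to 25096092. It had 520, 515 and 483 FPKM in IL-15C and 559, 569 and 568 FPKM in IL-2C. The groups did not overlap, and the IL-2C values lay closer together than the IL-15C values. The log2 change was -0.16 ± 0.05 with a 95% interval of -0.28 to -0.04, which did not pass (limma adjusted p = 0.0976). The E proteins that ID2 binds are encoded by Tcf3, Tcf12 and Tcf4. Tcf3 averaged 31.5 FPKM and Tcf12 27.3 FPKM over the 6 libraries, and Id2 was 17-fold above Tcf3. The ratio of Id2 to Tcf3 was 16.1, 16.0 and 15.6 in IL-15C, against 17.4, 18.3 and 18.6 in IL-2C, which did not overlap, with a log2 difference of -0.19. The ratio of Id2 to Tcf12 was 19.59, 19.41 and 18.34 in IL-15C, against 19.61, 20.38 and 20.45 in IL-2C. Its groups almost touched, and its log2 difference was only -0.08. Of the 4 tested E protein and other ID genes, 0 were called by limma in either direction; Id3 had 2.86, 1.37 and 2.19 FPKM in IL-15C and 3.17, 3.54 and 3.11 FPKM in IL-2C (limma adjusted p = 0.0846, unadjusted p = 0.0106), and Tcf12 had a log2 change of -0.08 ± 0.04.

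The other factors of lineage entry did not pass the test. Ets1, on chromosome 9 at 32696042 to 32757820, had 250, 253 and 247 FPKM in IL-15C and 272, 259 and 268 FPKM in IL-2C. Its groups were separated, but the log2 change was only -0.09 ± 0.05 and did not pass (limma adjusted p = 0.241). Ets1 was the most abundant of the ETS genes looked up, 2.47-fold above Elf4, the next. Of 13 tested ETS relatives, 0 were called by limma, and those with an unadjusted p under 0.05 lay on both sides of 0. Below 0 were Elf2 at -0.15 ± 0.04 (limma unadjusted p = 0.00447), Erf at -0.18 ± 0.07 (0.0225) and Fli1 at -0.11 ± 0.04 (0.0276). Above 0 were Etv3 at 0.33 ± 0.09 (limma unadjusted p = 0.00458) and Ets2 at 0.16 ± 0.07 (0.0354). Nfil3, a basic leucine zipper factor on chromosome 13 at 52967209 to 52981039, had 20.3, 18.5 and 16.6 FPKM in IL-15C and 18.9, 18.4 and 18.1 FPKM in IL-2C. The IL-15C values of Nfil3 spread to both sides of the IL-2C values, and the log2 change was -0.005 ± 0.06 (limma adjusted p = 0.971). Its relative Tef, which binds similar DNA sites, fell by 0.27 on the log2 scale to 14.6 ± 0.486 FPKM in IL-15C, against 17.9 ± 1.01 FPKM in IL-2C (SD, n = 3 each; limma adjusted p = 0.0223, and up to 0.0956 with a library left out, the call being lost without IL-15C replicate 3, IL-2C replicate 1 or IL-2C replicate 2). Gata3, on chromosome 2 at 9857078 to 9878600, had 24.0, 23.0 and 22.5 FPKM in IL-15C and 22.9, 22.9 and 20.5 FPKM in IL-2C. The groups of Gata3 overlapped, with a log2 change of 0.07 ± 0.05 (limma adjusted p = 0.436).

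The late factors Prdm1 and Ikzf3 did not pass the test. Prdm1, on chromosome 10 at 44437174 to 44458748, had 25.03, 28.9 and 27.4 FPKM in IL-15C and 30.1, 28.3 and 28.8 FPKM in IL-2C. IL-15C was lower in 7 of 9 library pairs, and the log2 change was -0.10 ± 0.06 with a 95% interval of -0.22 to 0.03 (limma adjusted p = 0.288). Of 6 tested PRDM relatives 0 were called by limma, and Prdm4 at -0.11 ± 0.05 and Prdm9 at -0.15 ± 0.06 had unadjusted p of 0.0371 and 0.0331. Ikzf3, on chromosome 11 at 98464693 to 98546031, had 150, 147 and 150 FPKM in IL-15C and 151, 143 and 147 FPKM in IL-2C. Its highest library was only 1.06-fold above its lowest, the smallest span of the 10 genes. The log2 change of Ikzf3 was 0.02 ± 0.04 with a 95% interval of -0.07 to 0.12 (limma adjusted p = 0.769). Ikzf1, the founding Ikaros gene, stood at a like level of 168 FPKM over the 6 libraries, and its log2 change was 0.01 ± 0.05.

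Genes listed here for the terminal stage, several of them targets of T-bet and Zeb2, moved in both directions. The list also holds effector genes, Gzmb and Ifng among them. Of its 16 genes, 3 rose and 3 fell by limma while 10 missed the threshold. Over all tested genes limma called 1.72% higher and 4.72% lower. The list's median log2 change was 0.02, against -0.04 over all genes. S1pr5, the sphingosine-1-phosphate receptor that lets mature NK cells leave tissues, had 189, 196 and 200 FPKM in IL-15C and 260, 242 and 229 FPKM in IL-2C. All IL-15C values of S1pr5 lay below those of IL-2C, with a log2 change of -0.32 ± 0.06 (limma adjusted p = 0.0195). The other genes that fell, named because they complete the count, were the chemokine receptor gene Cx3cr1 at -0.37 ± 0.09 and the chymase gene Cma1 at -0.32 ± 0.08. Gzmb (granzyme B) at 0.64 ± 0.08, Ly6c2 at 0.48 ± 0.08 and Ifng at 0.36 ± 0.06 rose. Klrg1 and Itgam, the surface proteins by which mature NK cells are gated, had -0.03 ± 0.07 and 0.05 ± 0.06 and did not pass. When 1 library at a time was dropped, the limma adjusted p reached 0.0866 for S1pr5, 0.127 for Cx3cr1, 0.144 for Cma1, 0.0521 for Gzmb, 0.0848 for Ly6c2 and 0.0687 for Ifng; each lost its call without IL-2C replicate 2, and each but Gzmb without IL-2C replicate 1. The call of S1pr5 was also lost without IL-15C replicate 2, that of Cx3cr1 without any library but IL-15C replicate 1, and that of Cma1 without any of the 6. Cx3cr1 and Cma1 also lost theirs after scaling to a common median and with no intensity trend, Cma1 with a common sum, quantile normalization and the replicate block as well, and all 6 genes with no filter.

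Among 14 genes listed here for the immature stages, not all confined to them, limma called 2 higher and 0 lower. The other 12 were not past the threshold, and the list's median log2 change was 0.09. Over all tested genes it called 1.72% higher and 4.72% lower. Thy1 (CD90) had 151, 141 and 122 FPKM in IL-15C and 77.6, 73.8 and 85.1 FPKM in IL-2C, a log2 change of 0.80 ± 0.08 (limma adjusted p = 0.00263), and kept its call with each library left out but not with no filter on low genes. Cd27, a costimulatory receptor that is lost on terminally mature cells, had 41.8, 38.3 and 38.6 FPKM in IL-15C and 34.0, 34.8 and 32.9 FPKM in IL-2C, and its limma adjusted p of 0.0347 reached 0.101 with a library left out; the call was kept only without IL-15C replicate 1. Of 32 tested transcription factor genes from a list of 35 with other roles in NK cells, 0 rose, 2 fell and 30 did not pass. That count lies near the 4.72% called lower over all tested genes. The 2 that fell were Tcf7 and Tox, which act early in NK development. Tcf7 had 35.4, 34.8 and 31.2 FPKM in IL-15C and 42.9, 49.3 and 44.9 FPKM in IL-2C, a log2 change of -0.42 ± 0.06 (limma adjusted p = 0.0130, or 0.0605 without IL-2C replicate 2). Tox had 8.04, 8.65 and 7.71 FPKM in IL-15C and 10.1, 10.4 and 9.89 FPKM in IL-2C, a log2 change of -0.29 ± 0.05 (limma adjusted p = 0.0195), and lost its call without IL-15C replicate 3, IL-2C replicate 1 or IL-2C replicate 2 (up to 0.0898). With no filter on low genes, the calls of Cd27, Tcf7, Tox, Tef, Itgax and Zeb2os were lost as well. The STAT genes on the list did not pass the test: the log2 changes were -0.14 ± 0.05 for both Stat4 and Stat5b, whose groups did not overlap, and -0.07 ± 0.04 for Stat5a, whose groups did.

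**Figure D4:**
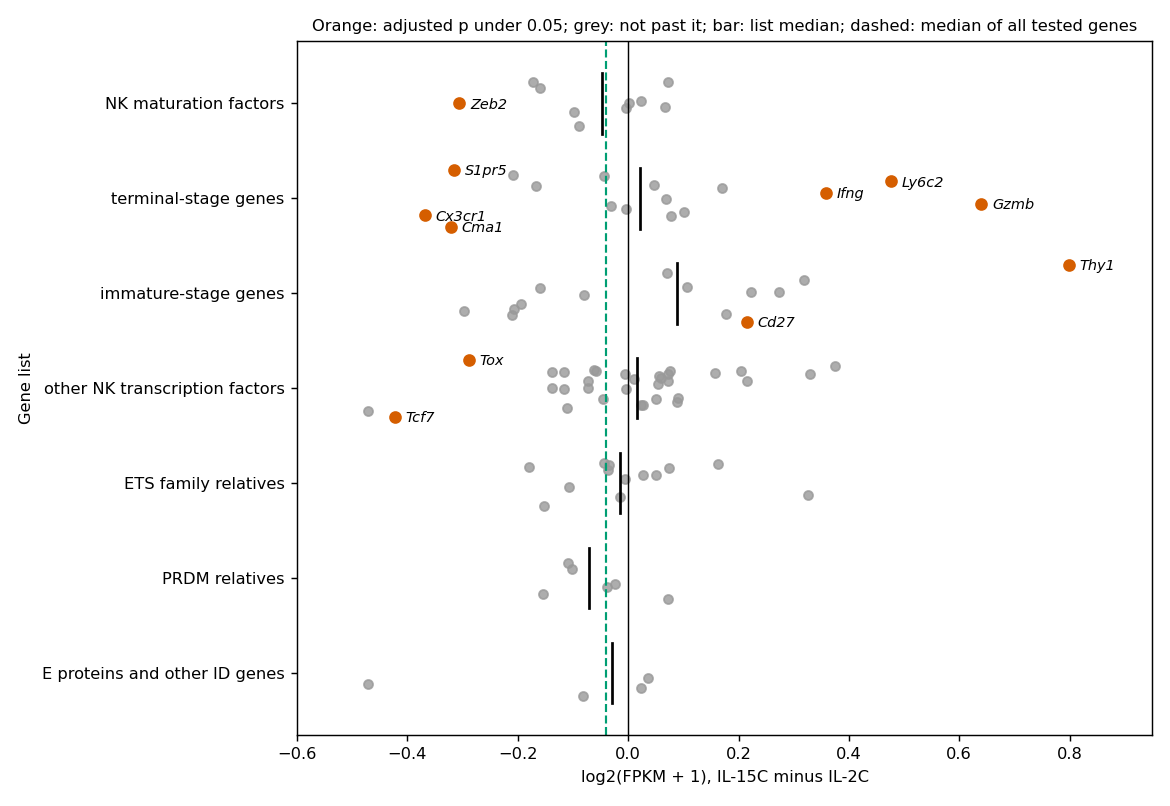
Log2 change of every tested gene of 7 lists, IL-15C minus IL-2C; orange genes passed the limma threshold, black bars are list medians and the dashed line is the median of all tested genes. Called genes of the terminal-stage list, which also holds effector genes, lie on both sides of 0, and the factor list has 1 called gene, Zeb2.

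**Figure D5:**
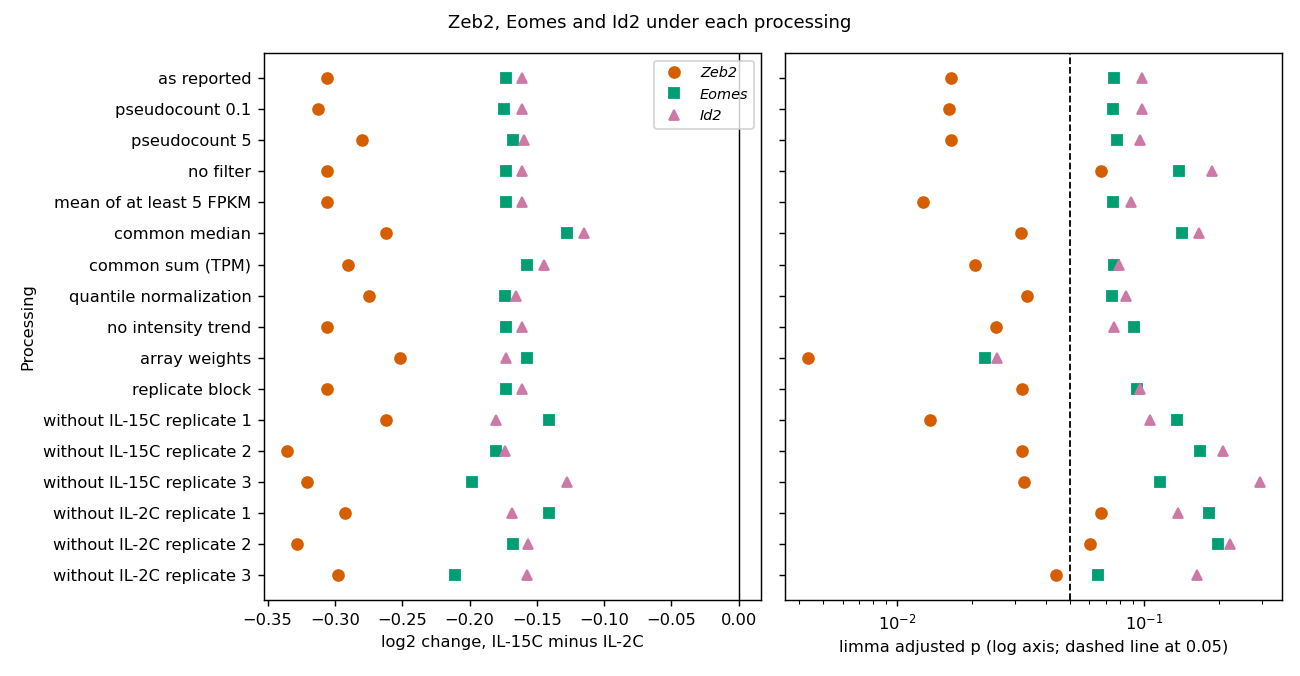
Log2 change (left) and limma adjusted p (right, log axis) of Zeb2, Eomes and Id2 under the reported processing and 16 alternatives. The changes of all 3 genes stay below 0; Zeb2 lies right of the 0.05 line in 3 alternatives, and Eomes and Id2 lie left of it only with library weights (array weights on the axis).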

How the data were processed

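Sequencing libraries were made from total RNA of sorted splenic NK cells, per the labels' protocols. TopHat2 2.0.13 and Cufflinks 2.2.1 with the mm10 genome are listed, per the submitters' processing notes. The annotation was not given in the sources used here. Per the file headers, the authors deposited 1 table of FPKM values per library, with lower and upper bounds, and a separately scaled table of group FPKM values, which was only quoted. FPKM are not counts, so no count model was fitted. For 280 genes with several rows the FPKM values were added up, and 10 genes were dropped because an estimate had failed. Fragment numbers were read from the bounds as 2 SD of a Poisson count; 29.4% to 31.3% of rows of 5 to 200 implied fragments were within 0.02 of a whole number, so whole reads were not recovered.

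limma 3.58.1 (R 4.3.3) was fitted with an intensity trend on log2(FPKM + 1), two-sided, without a replicate block. It was also run on simulated normal values with the fitted means and spread, which does not test its assumptions on these libraries. Groups and replicate numbers came from the titles. The labels do not state that each library is a separate mouse, so a p-value reflects only spread among these samples, and that spread may be technical. The factor genes and the gene lists were chosen with earlier results of these data known. Named genes were the 10 factors, up to 4 called genes per list and the 3 genes closest to each called factor. Starts are written 1-based. Sequences came from RefSeq and overlapping genes from GENCODE, both on GRCm38. Python 3.11.15, pandas 2.3.3, numpy 2.4.6 and matplotlib 3.10.9 were used.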

Additional observations from a re-analysis of the deposited data

How the results depend on the processing

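Alternatives were pseudocounts of 0.1 and 5, no filter or a mean of at least 5 FPKM, 3 other scalings, no intensity trend, library weights, a replicate block and leaving out each library. Over all genes, limma called 6 higher and 9 lower with no filter, 325 and 207 with a common median, 307 and 269 with quantile normalization, and 440 and 1667 with library weights, against 169 and 464 as reported. Leaving out a library gave 14 to 175 higher and 15 to 572 lower, with the smallest counts without IL-2C replicate 2. Of the 10 factor genes, 0 were lower with no filter (4 at an unadjusted p under 0.05), 3 with library weights (Zeb2, Eomes and Id2, where 17% of all genes were called lower), and 0 to 1 with a library left out; limma called 0 higher in every alternative (at most 2 at an unadjusted p under 0.05, with quantile normalization). Shares of all genes at the unadjusted cut are not given for these alternatives. Eomes and Id2 had limma adjusted p of 0.0227 and 0.0254 with library weights. The cause was not tested. Tbx21 turned to -0.031 with quantile normalization and -0.020 with library weights, and ranged from -0.066 to 0.083 with a library left out. Nfil3 turned to 0.038 with a common median, 0.010 with a common sum and 0.030 with quantile normalization, and ranged from -0.072 to 0.064 with a library left out. The other 8 factor genes kept their direction in all 16 alternatives. Same-numbered libraries did not deviate together (r of deviations -0.03, -0.16 and -0.02). With 3 libraries per treatment, such correlations cannot decide whether equal numbers mark pairs. With the replicate block Zeb2 had a limma adjusted p of 0.0321 and remained the 1 called factor gene.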

Other observations

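Zbtb32, a zinc-finger transcription factor that mouse NK cells need to expand during viral infection, was on the list of other NK factors but fell below the filter of a mean of 1 FPKM; it is named after its values were seen. It had 0.961, 1.07 and 1.02 FPKM in IL-15C and 0.308, 0.290 and 0.284 FPKM in IL-2C. The groups lay far apart beside the spread inside each, with means of 1.02 ± 0.056 FPKM in IL-15C and 0.294 ± 0.013 FPKM in IL-2C (SD, n = 3 each), 3.46-fold higher in IL-15C. With no filter, over 16313 genes, its log2(FPKM + 1) change was 0.64 ± 0.03 (limma adjusted p = 0.00614), making it 1 of the 6 genes called higher there. It therefore had the widest ratio among the transcription factor genes named here, at a level too low for the main test.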
